A study of Homo sapiens with 11 samples.

Results

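Mitochondria translate the messages of their own genome with their own set of transfer RNAs, and 30 nuclear genes whose products charge, amidate, formylate, trim or modify those tRNAs were followed in Z138, an established mantle cell lymphoma line. The genes were chosen by name for their role, with earlier results of these data known. All 30 were found among the 59608 symbols of the deposited expression table, with 1 entry each. They comprise 16 mitochondrial aminoacyl-tRNA synthetases, 3 subunits of the glutaminyl-tRNA amidotransferase, 1 formyltransferase, 3 enzymes that cut the tRNA ends, and 7 enzymes that modify bases.

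Each synthetase joins its amino acid to the matching tRNA in the mitochondrial matrix. No separate glutaminyl enzyme serves the organelle: EARS2 puts glutamate on the glutamine tRNA, and QRSL1, GATB and GATC then amidate it. The tRNAs themselves are cut out of long mitochondrial transcripts and carry modified bases at and beside the anticodon, which are needed to read the codons of the respiratory chain subunits. The study set the loss of the DNA methyltransferase DNMT3A beside oxidative phosphorylation and resistance to ibrutinib, and the genes described here supply the tRNAs for that pathway's mitochondrially encoded subunits.

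RNA sequencing covered 9 libraries of a Z138 clone, clone 7, that carries Cas9-RFP and 2 doxycycline-inducible guides against DNMT3A. The groups were 3 libraries of uninduced cells without doxycycline, 3 libraries after 5 days and 3 libraries after 7 days of doxycycline at 2 ng/mL. The biological replicates were vials frozen separately and induced on different days, and each library holds the pooled RNA of 2 technical duplicates. All groups share the clone, Cas9 and the guides, and no library of cells given doxycycline without guides was analysed here, so drug, Cas9 activity and the cut cannot be told apart. Chromatin immunoprecipitation for DNMT3A covered 1 library of wild-type Z138 and 1 library of the clone after 7 days of doxycycline, which served as negative control.

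Expression was deposited as TPM, a relative transcript abundance that is corrected for transcript length and sums to 1000000 in each library. Depth is therefore unknown, and in bulk RNA fewer cells of a type and less RNA per cell cannot be told apart. Of 9 B cell and mantle cell lymphoma markers, 8 were at or above 1 TPM in at least 3 libraries and CD5 was listed at 0. Their summed level spanned 1839 to 2092 TPM in uninduced cells, 1752 to 2015 TPM at day 5 and 1736 to 2114 TPM at day 7. None of the 5 T and NK cell, 5 myeloid or 3 erythroid markers reached that level, and of 5 epithelial and fibroblast markers COL1A1 alone did, with a summed level for that list between 7.15 and 16.1 TPM. The DNMT3A transcript had 10.1, 9.71 and 10.4 TPM in uninduced cells, 18.9, 10.9 and 10.0 TPM at day 5, and 11.0, 9.24 and 10.0 TPM at day 7. The level of an edited transcript does not show whether the gene was cut, so it does not check the labels. The substrates of the 30 enzymes could not be followed, because all 37 mitochondrially encoded genes in the table, 22 tRNAs among them, are listed at 0 in every library.

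All 30 genes had at least 1 TPM in all 9 libraries and so passed the filter of at least 1 TPM in at least 3 libraries, which kept 15045 genes for testing. Mean levels over the 9 libraries spanned 27.2-fold, between 4.41 TPM for WARS2, the tryptophanyl enzyme, and 120.2 TPM for HSD17B10, a subunit of mitochondrial RNase P that also acts as a dehydrogenase in isoleucine breakdown. The median was 19.0 TPM, with 7 genes under 10 TPM and 7 genes over 50 TPM. Ranked by mean level, the ranges over libraries overlapped in all 29 pairs of neighbours, so no gene was set apart from the next in the order.

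**Figure D1:**
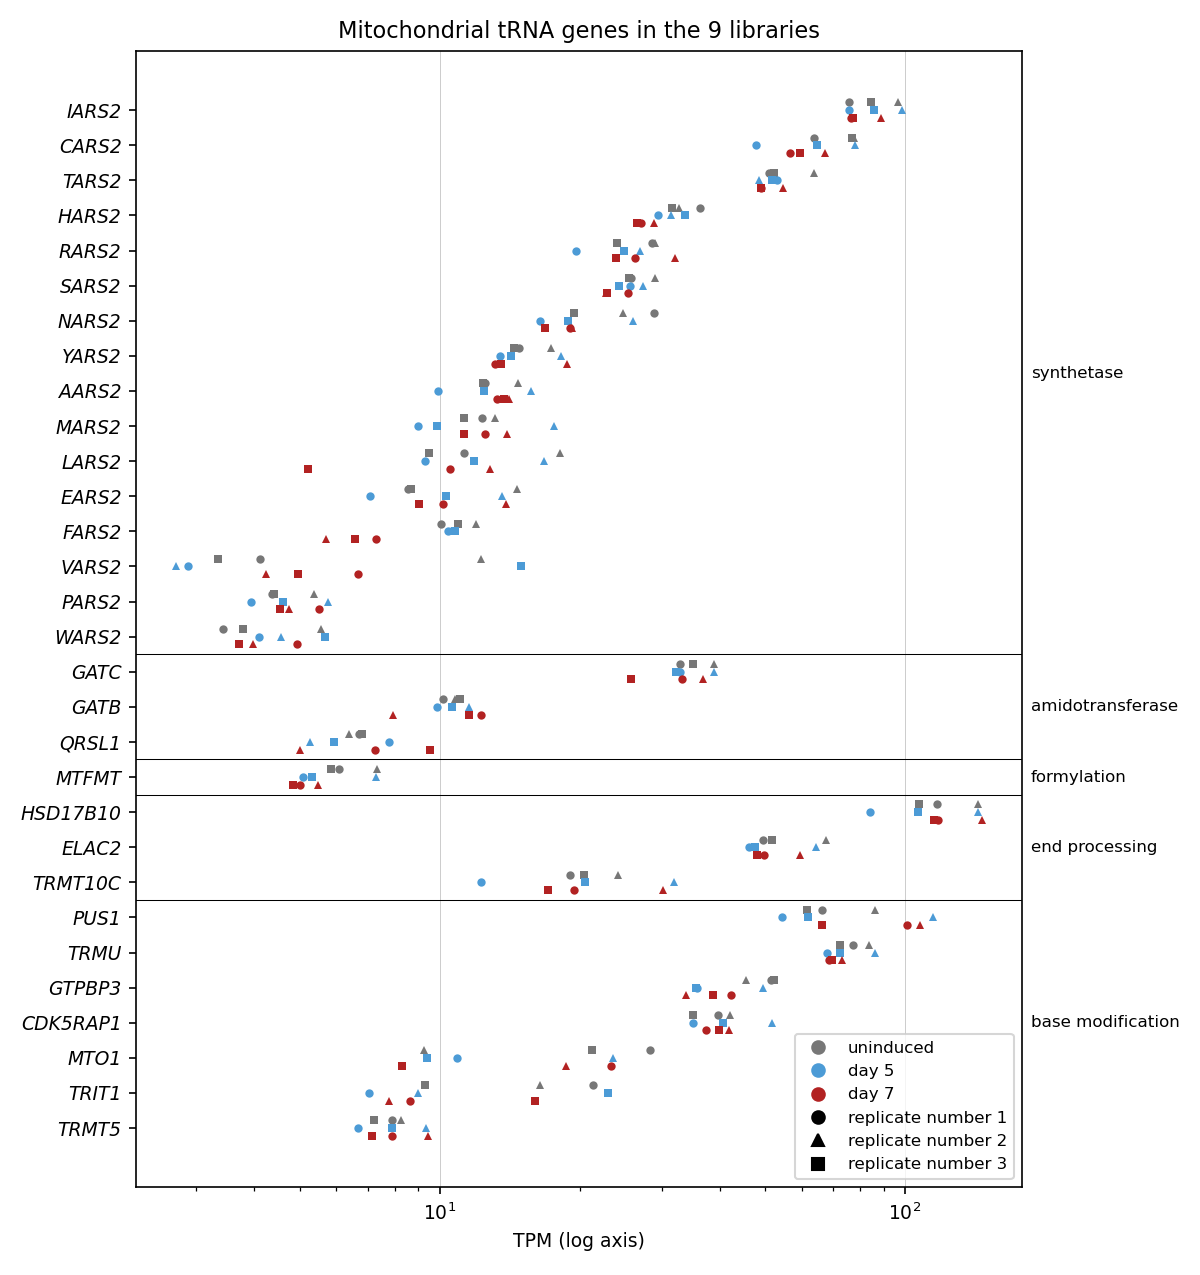
TPM on a log axis of the 30 genes in each of the 9 libraries, grouped by role, with colour for the group and shape for the replicate number. Within most genes the libraries lie close together, while VARS2, LARS2, MTO1 and TRIT1 span more than 3-fold, and in ELAC2 and EARS2 the triangles of replicate number 2 lie to the right.

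Among the 16 synthetases the median level was 14.3 TPM and the range 19.1-fold. The isoleucyl enzyme IARS2 was highest, at 84.4 TPM. It had 75.9, 96.8 and 84.6 TPM in uninduced cells, 75.8, 98.6 and 85.7 TPM at day 5, and 76.6, 88.8 and 77.3 TPM at day 7. WARS2 had 3.42, 5.55 and 3.79 TPM in uninduced cells, 4.09, 4.57 and 5.68 TPM at day 5, and 4.94, 3.96 and 3.71 TPM at day 7. In both genes the 3 groups overlapped.

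The subunits of the amidotransferase complex differed 5.05-fold in transcript level. GATC averaged 34.0 TPM, with values between 25.8 and 38.9 TPM, and GATB values lay between 7.96 and 12.3 TPM. QRSL1, the catalytic subunit, was lowest at 6.74 TPM on average. It had 6.70, 6.40 and 6.82 TPM in uninduced cells, 7.78, 5.26 and 5.93 TPM at day 5, and 7.26, 5.01 and 9.52 TPM at day 7. The 3 uninduced libraries of QRSL1 lay within a narrower band than either induced group. MTFMT, which formylates the initiator methionyl-tRNA, averaged 5.81 TPM.

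Of the enzymes that free the tRNA from its precursor, HSD17B10 had the highest mean of the 30 and ELAC2, which cuts the 3′ end, averaged 53.8 TPM. TRMT10C, the methyltransferase subunit of RNase P, averaged 21.7 TPM, near the median of 19.0 TPM. Among the base-modifying enzymes the pseudouridine synthase PUS1, which also acts in the nucleus, averaged 80.0 TPM. TRMT5, which methylates the guanosine beside the anticodon, was lowest at 7.98 TPM. TRMU, which adds sulfur to the wobble base, ranged between 67.9 and 86.3 TPM over the libraries. CDK5RAP1, which adds a methylthio group to the adenosine beside the anticodon, had 39.7, 42.1 and 35.1 TPM in uninduced cells, 35.1, 51.7 and 40.6 TPM at day 5, and 37.4, 41.9 and 39.9 TPM at day 7.

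For 13 synthetases a single separate gene encodes the cytosolic enzyme for the same amino acid, and the length-corrected levels were set side by side. The cytosolic transcript was higher in 12 of 13 pairs, and in each of those 12 pairs it was higher in every library. The median ratio of cytosolic to mitochondrial mean TPM was 10.2. The widest gap was that of the tryptophanyl pair, at 42.0. Cysteine was the exception, at a ratio of 0.731: CARS2 averaged 65.8 TPM and cytosolic CARS1 48.1 TPM.

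The question of the design is whether these transcripts differ after induction of the guides. Each difference was tested with limma, a linear model with moderated variances, on log2(TPM + 1), and p-values were adjusted over the 15045 genes by the Benjamini-Hochberg method with a threshold of 0.05. Fold changes are log2 differences on that scale, which understates the change of low genes. In comparisons between days, p-values rest on the spread between the 3 replicates within each group, estimated over all 9 libraries.

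At day 7, 0 of 30 genes passed the threshold against uninduced cells, where the share over all genes was also 0%. An unadjusted p under 0.05 was reached by 3 of 30 genes, FARS2, HARS2 and GTPBP3, against 337 of 15045 genes tested. All 3 were lower at day 7, and 1.47% of all genes tested reached that p while lower. Without uninduced replicate 1 the count was 1 of 30, against 465 of 14879 genes. It was also 1 without day 7 replicate 3, against 479 of 14894 genes. Without day 5 replicate 2 it was 4, against 376 of 14907 genes. Log2 fold changes over the 30 genes lay between -0.67 and 0.34, with 11 above and 19 below 0, and 55.1% of all genes were below 0. The median was -0.09, beside -0.02 for all genes tested. In 6 of the 30, FARS2, HARS2, GTPBP3, NARS2, MTFMT and SARS2, every day 7 library lay below every uninduced library, against 4.17% of all genes, and in 0 of 30 did every day 7 library lie above, against 1.97%. Without day 7 replicate 2 the number lying entirely below was 10, and the share of all genes was then 11.3%. The median depended on uninduced replicate 2: without that library it was 0.02 for day 7 against uninduced.

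**Figure D2:**
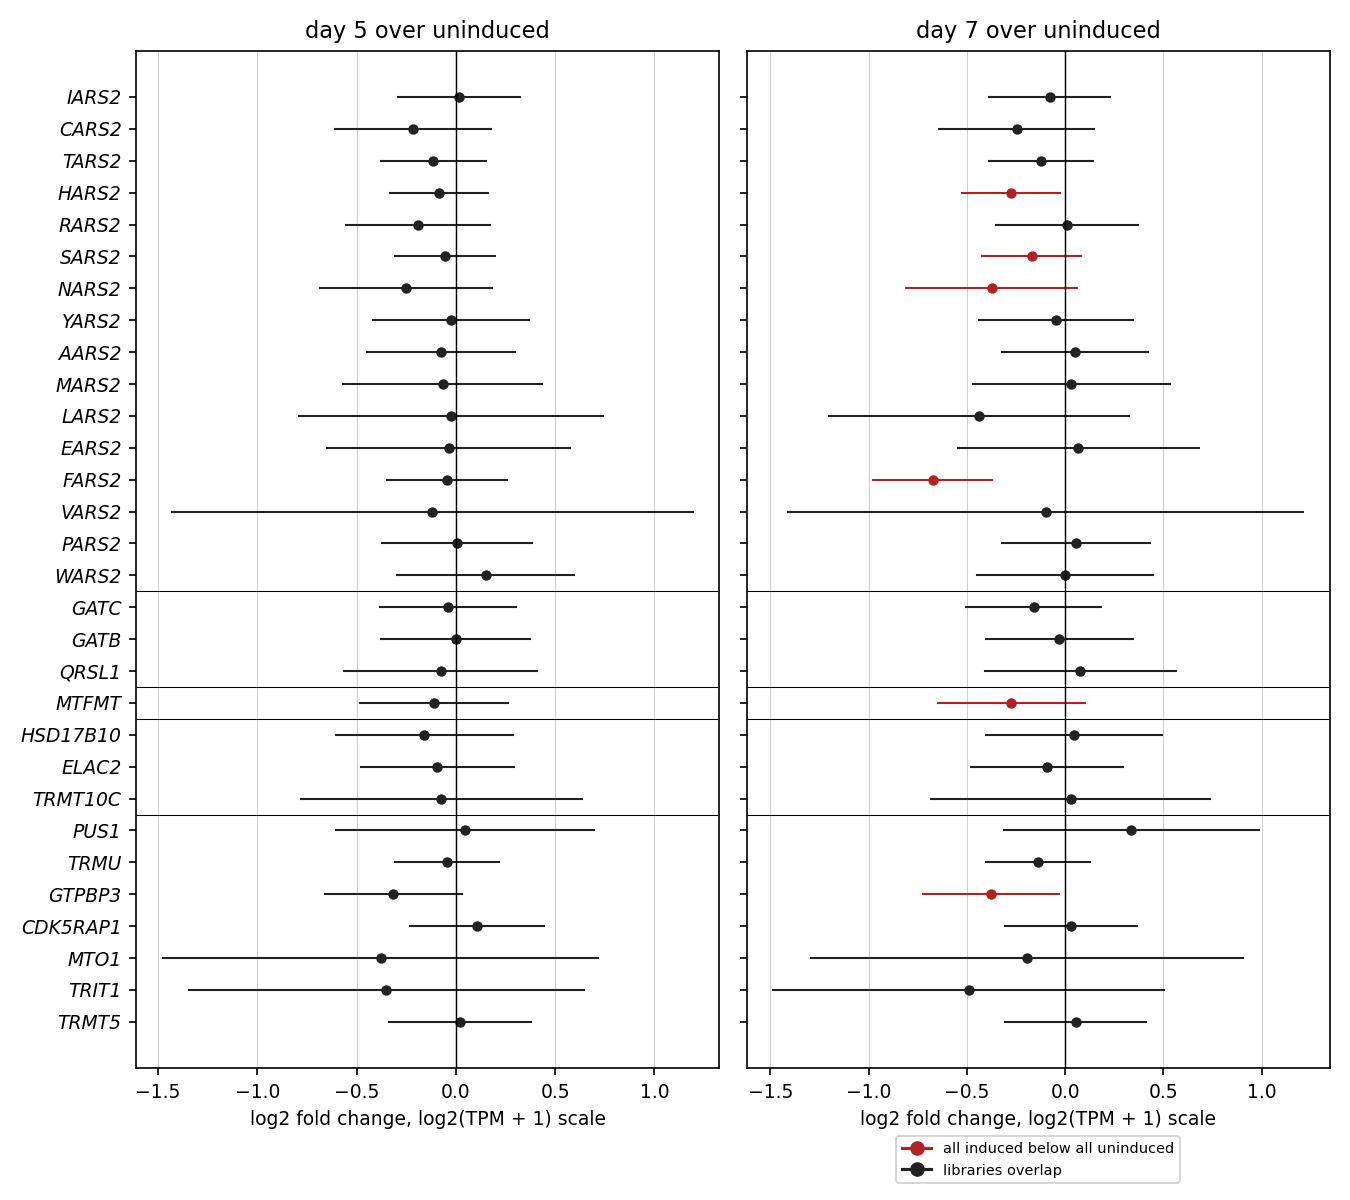
Log2 fold change on the log2(TPM + 1) scale of each of the 30 genes, with day 5 over uninduced on the left and day 7 over uninduced on the right, where points are limma estimates, bars 95% confidence intervals and lines divide the roles. Red marks the 6 genes whose day 7 libraries all lie below all uninduced libraries, and FARS2 lies farthest to the left, at -0.67.

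FARS2 had the smallest p of the 30. It encodes the mitochondrial phenylalanyl enzyme, which works as a monomer, while the cytosolic enzyme is built of FARSA and FARSB. FARS2 had 7.29, 5.69 and 6.59 TPM at day 7, against 10.0, 11.9 and 11.0 TPM in uninduced cells. The groups did not overlap: the highest day 7 value lay below the lowest uninduced value. On the log2 scale FARS2 differed by -0.67 (SE 0.134, 95% interval -0.98 to -0.37), with adjusted p = 1. The gene ranked 2 of 15045 by p, and no gene passed the threshold in this comparison. Within replicate numbers 1, 2 and 3 the log2 fold change was -0.41, -0.95 and -0.66. Leaving out each library in turn kept it between -0.75 and -0.59. FARSA and FARSB had log2 fold changes of -0.07 (SE 0.185) and -0.04 (SE 0.111), both with overlapping libraries.

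FARS2 spans chr6:5249934-5771583 (GRCh38.p14) and overlaps LYRM4, whose product acts in mitochondrial iron-sulfur cluster assembly. LYRM4 averaged 32.6 ± 1.27 TPM at day 7 and 31.6 ± 2.94 TPM in uninduced cells (SD, n = 3 each). The library kit keeps strand, but the counting setting is not given in the sources used here, so whether reads of the overlapping genes were shared was not tested.

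**Figure D3:**
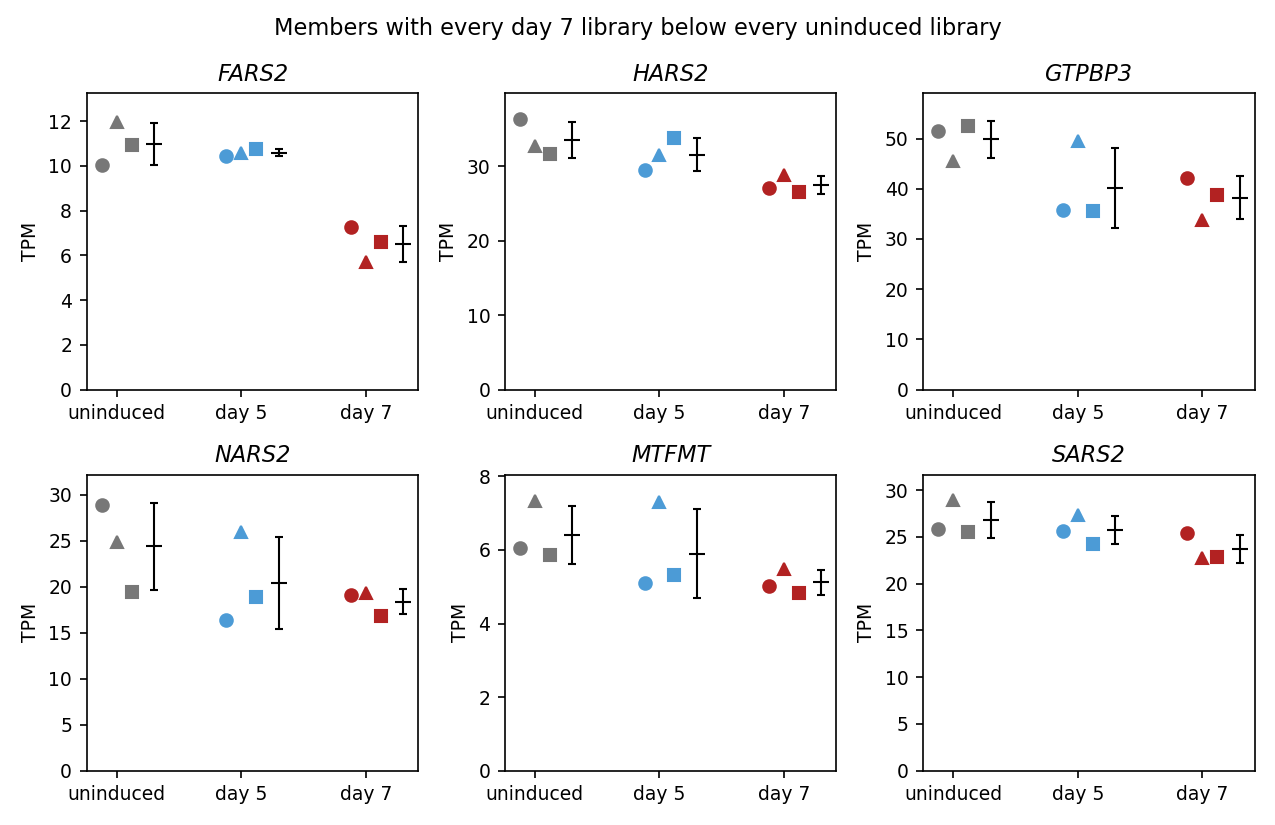
TPM of the 6 genes whose day 7 libraries all lie below all uninduced libraries, by group, with colour for the group, shape for the replicate number (circle 1, triangle 2, square 3) and black bars for the mean and SD of 3 libraries. In FARS2 the day 5 libraries lie with the uninduced ones, while in the other 5 genes the day 5 libraries spread more widely and at least 1 of them lies within the uninduced range.

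HARS2, the histidyl enzyme at chr5:140691455-140699305, had 27.1, 28.8 and 26.5 TPM at day 7, against 36.3, 32.6 and 31.6 TPM in uninduced cells. Its log2 fold change was -0.28 (SE 0.110, 95% interval -0.52 to -0.03), with adjusted p = 1. GTPBP3, at chr19:17334982-17342731, forms with MTO1 the enzyme that places taurinomethyluridine at the wobble base. It had 42.2, 33.8 and 38.7 TPM at day 7, against 51.5, 45.6 and 52.4 TPM in uninduced cells. The log2 fold change of GTPBP3 was -0.38 (SE 0.153, 95% interval -0.72 to -0.03), with adjusted p = 1. Its partner MTO1 spanned 8.32 to 23.3 TPM at day 7 and 9.25 to 28.3 TPM in uninduced cells, so its groups overlapped. Whether a difference of the size estimated for GTPBP3 could be seen in MTO1 was not tested.

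NARS2, the asparaginyl enzyme, had 19.1, 19.3 and 16.8 TPM at day 7, against 28.9, 24.8 and 19.4 TPM in uninduced cells. The groups of NARS2 were separated by the gap between 19.3 and 19.4 TPM alone, with a log2 fold change of -0.37 (SE 0.193). MTFMT had 5.02, 5.49 and 4.83 TPM at day 7, against 6.06, 7.32 and 5.85 TPM in uninduced cells, a log2 fold change of -0.27 (SE 0.166). The seryl enzyme SARS2 had 25.4, 22.7 and 22.9 TPM at day 7, against 25.8, 29.0 and 25.5 TPM in uninduced cells, a log2 fold change of -0.17 (SE 0.112). Adjusted p was 1 for these 3 genes. Within replicate number 1 the SARS2 difference was -0.02, beside -0.34 and -0.15 within numbers 2 and 3.

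By role, 11 of 16 synthetases were below 0 at day 7, with a median log2 fold change of -0.09. Summed levels of the 16 averaged 373 TPM at day 7 and 417 TPM in uninduced cells. By library the sums were 364, 406 and 349 TPM at day 7 and 392, 467 and 393 TPM in uninduced cells, so the groups overlapped. Of the end-processing enzymes 2 of 3 were above 0, and their summed level averaged 201 TPM at day 7 and 200.1 TPM in uninduced cells. The base-modifying enzymes summed to 276 TPM at day 7 and 281 TPM in uninduced cells. Among genes above 0, PUS1 had 101, 108 and 66.2 TPM at day 7, against 66.4, 86.4 and 61.6 TPM in uninduced cells, a log2 fold change of 0.34 with an interval of -0.31 to 0.99. Its day 7 library numbered 3 lay among the uninduced values. QRSL1 at 0.08 (SE 0.216), the prolyl enzyme PARS2 at 0.06 (SE 0.168) and TRMT5 at 0.05 (SE 0.160) followed. PARS2 values lay between 4.55 and 5.51 TPM at day 7 and between 4.36 and 5.37 TPM in uninduced cells. TRMT5 had 7.15 to 9.46 TPM at day 7 and 7.23 to 8.26 TPM in uninduced cells. These 3 took the other sign without a single library: QRSL1 was -0.12 without day 7 replicate 3, PARS2 -0.01 without day 7 replicate 1 and TRMT5 -0.05 without day 7 replicate 2.

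At day 5, 0 of 30 genes passed the threshold against uninduced cells, where 0.00665% of all genes did. An unadjusted p under 0.05 was reached by 0 of the 30, against 1.99% of all genes. Without day 5 replicate 2 it was reached by 4 of the 30 and by 580 of 14907 genes, and 0 of the 30 passed the threshold there as well. With all libraries, in none of the 30 did the libraries of the groups separate, against 3.22% of all genes lying entirely lower and 2.34% entirely higher. Log2 fold changes lay between -0.38 and 0.15, with 6 above and 24 below 0, and 54.7% of all genes were below 0. The median was -0.07, beside -0.02 for all genes. That median was 0.007 without uninduced replicate 2 and 0.03 without day 5 replicate 1.

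GTPBP3 had the smallest p of the 30 at day 5. It had 35.7, 49.4 and 35.6 TPM at day 5, against 51.5, 45.6 and 52.4 TPM in uninduced cells, with a log2 fold change of -0.32 (SE 0.153, adjusted p = 1). The day 5 library numbered 2 lay among the uninduced values, and within numbers 1, 2 and 3 the difference was -0.52, 0.11 and -0.55. NARS2 had 16.4, 26.0 and 18.9 TPM at day 5 and a log2 fold change of -0.25 (SE 0.193). CARS2, the cysteinyl enzyme, had 47.9, 78.0 and 64.6 TPM at day 5, against 63.8, 77.6 and 76.9 TPM in uninduced cells, a log2 fold change of -0.22 (SE 0.175). The arginyl enzyme RARS2 had 19.6, 26.9 and 24.9 TPM at day 5, against 28.6, 29.0 and 24.0 TPM in uninduced cells, a log2 fold change of -0.19 (SE 0.160). In NARS2, CARS2 and RARS2 the lowest day 5 library was number 1. Their sizes depended on single libraries: without day 5 replicate 1 NARS2 was at -0.11, CARS2 at -0.03 and RARS2 at -0.06, and without day 5 replicate 2 NARS2 was at -0.43, CARS2 at -0.38 and RARS2 at -0.28. GTPBP3 lay between -0.47 and -0.24 with each library left out in turn. On the other side of 0 stood WARS2 at 0.15, CDK5RAP1 at 0.11, PUS1 at 0.04 and TRMT5 at 0.02. Of these 4, WARS2 alone kept its sign when each library was left out in turn. Without day 5 replicate 2, CDK5RAP1 was at -0.04, PUS1 at -0.28 and TRMT5 at -0.09, and without uninduced replicate 3, PUS1 was at -0.05 and TRMT5 at -0.03. FARS2 stayed near its uninduced level, with 10.4, 10.6 and 10.8 TPM at day 5 and a log2 fold change of -0.04 (95% interval -0.35 to 0.26).

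Set against day 5, the day 7 libraries gave 0 of 30 genes past the threshold, where 0.00665% of all genes passed. Without day 5 replicate 2, an unadjusted p under 0.05 was reached by 4 of the 30 and by 505 of 14907 genes. With all libraries FARS2 alone reached it, against 1.68% of all genes. It had 7.29, 5.69 and 6.59 TPM at day 7, against 10.4, 10.6 and 10.8 TPM at day 5, a log2 fold change of -0.63 (SE 0.134, 95% interval -0.93 to -0.33, adjusted p = 1). Both day 7 comparisons share the day 7 libraries. In FARS2 and HARS2 every day 7 library lay below every day 5 library, 2 of 30 against 2.46% of all genes, and in none did every one lie above, against 1.85%. Of the 30, 12 were above and 18 below 0, and 51.2% of all genes were below. For HARS2 the day 5 values were 29.4, 31.5 and 33.8 TPM and the log2 fold change was -0.19 (SE 0.110). RARS2, with 26.3, 32.1 and 24.0 TPM at day 7, was at 0.20 (SE 0.160). HSD17B10 was at 0.21 (SE 0.199), with 118, 146 and 116 TPM at day 7, against 84.2, 144 and 107 TPM at day 5. Without day 5 replicate 1 RARS2 was at 0.07 and HSD17B10 at 0.02, and without day 5 replicate 2 they were at 0.29 and 0.40. The median over the 30 was -0.02, and it was 0.06 without day 5 replicate 2 and 0.003 without day 7 replicate 3.

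With the mean of both induced groups set against uninduced cells, 0 of 30 genes passed, where 0.00665% of all genes did. FARS2 at -0.36 (SE 0.116) and GTPBP3 at -0.35 (SE 0.133) reached an unadjusted p under 0.05, against 2.16% of all genes. In none of the 30 did the induced libraries all lie below the uninduced ones, against 0.884% of all genes, or all above, against 0.372%. There were 7 genes above and 23 below 0, against 55.9% of all genes below. Without uninduced replicate 2 the number below 0 was 15 and the median 0.006, and without day 5 replicate 1 it was 16. With each library centred on its median, 19 of the 30 were below 0, against 48.8% of all genes.

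The rest of the pathway gave no gene past the threshold in any comparison between days, and none with an unadjusted p under 0.05 at day 7. Among 20 other mitochondrial tRNA genes, which include GARS1, a glycyl enzyme shared by both compartments, 8 were above and 12 below 0 at day 7, with a median of -0.02. The smallest p belonged to PUSL1 at 0.16 and GARS1 at 0.18. Among 18 cytosolic synthetases 9 were above and 9 below 0 at day 7, with a median of -0.01. QARS1, the glutaminyl enzyme, was at -0.19 and WARS1 at 0.35. All induced libraries of QARS1 (271 to 351 TPM) lay below all its uninduced libraries (357 to 397 TPM). That is 1 of the 18, against 0.884% of all genes. Among 11 mitochondrial translation factors 4 were above and 7 below 0, with a median of -0.02. GFM2, which acts in ribosome recycling, was at 0.18, and the recycling factor MRRF was at -0.29. At day 5 the medians of the 3 lists were -0.03, 0.08 and -0.03. The smallest p at day 5 belonged to PTCD1 at -0.15 and QTRT1 at -0.21 of the tRNA genes, QARS1 at -0.26 and LARS1 at 0.21 of the cytosolic synthetases, and MTRFR at -0.10 and MTIF3 at 0.07 of the translation factors.

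In these genes, as over all genes tested, more of the spread went with the replicate number than with the day. Of the sum of squares of log2(TPM + 1), the median share of the replicate number was 52.1% over the 30 genes and the share of the group was 12.6%, beside 46.0% and 13.0% over all genes tested. The number took the larger share in 23 of the 30, against 75% of all genes. The labels do not say whether a number marks the same vial in all 3 groups. In FARS2 the group took 91.9% and the number 0.161%, while in ELAC2 the number took 90.2% and the group 5.43%.

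A test of the 3 numbers with the group as a term, limma's F-test, called ELAC2 (adjusted p = 0.0289) and EARS2 (adjusted p = 0.042), 2 of 30 against 12.6% of all genes. Without single libraries the number called among the 30 ranged between 0 and 3, and the share of all genes between 1.68% and 10.9%. None of the 30 was called without any of the 3 uninduced libraries, day 5 replicate 2, or day 7 replicate 2 or 3. In those settings 1.68% to 6.43% of all genes passed. Without day 7 replicate 1 the count was 1 of 30, against 5.81% of all genes. ELAC2, at chr17:12991612-13018027, had 67.7 TPM in uninduced cells, 64.4 TPM at day 5 and 59.5 TPM at day 7 in the libraries numbered 2. The libraries numbered 1 had 49.4, 46.3 and 49.7 TPM at the same points, and those numbered 3 had 51.7, 47.7 and 48.0 TPM. EARS2, at chr16:23520754-23557375, had 14.7, 13.6 and 13.9 TPM in the libraries numbered 2, against 8.57, 7.09 and 10.1 TPM in those numbered 1 and 8.67, 10.3 and 9.05 TPM in those numbered 3. In both genes every library numbered 2 lay above all 6 others. ELAC2 overlaps ARHGAP44, with a mean of 5.41 TPM, and EARS2 overlaps GGA2, with a mean of 48.5 TPM, and whether reads were shared was not tested.

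Set pairwise, the libraries numbered 2 differed from those numbered 1 in 7 of 30 genes, all higher in number 2, against 9.05% of all genes higher and 8.55% lower. The 7 are the synthetases CARS2, EARS2, IARS2 and YARS2 and all 3 end-processing enzymes. That count depended on single libraries. It was 0 without day 5 replicate 2, and 1 without uninduced replicate 1 or 2, day 5 replicate 1 or day 7 replicate 2. It was 2 without uninduced replicate 3, 4 without day 5 replicate 3 and at most 6 without any other library. The count over all genes moved as well, between 717 and 2258 with each library left out in turn. Of the 30, 24 were higher and 6 lower in number 2, with a median log2 fold change of 0.24, beside 0.02 over all genes. In 13 every library numbered 2 lay above every library numbered 1, against 21.1% of all genes, and in 1, QRSL1, every one lay below, against 17.5%. Against number 3, ELAC2 alone passed, at 0.37 (adjusted p = 0.0379), against 4.62% of all genes higher and 3.2% lower. The count against number 3 was 0 without any of the 3 uninduced libraries, day 5 replicate 2 or 3, or day 7 replicate 2 or 3. It was 6 without day 5 replicate 1. Over all genes the count against number 3 ranged between 1 and 1923 with each library left out in turn. ELAC2 no longer passed under upper-quartile scaling (adjusted p = 0.0628) or median centring (adjusted p = 0.0505). In 16 of 30 every library numbered 2 lay above every library numbered 3, against 22.9% of all genes, in none did every one lie below, against 14.1%, and the median was 0.21, beside 0.05 over all genes. Between numbers 1 and 3, 0 of 30 passed, where 0.12% of all genes did, and 1 of the 30 had an unadjusted p under 0.05, against 12.7%.

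**Figure D4:**
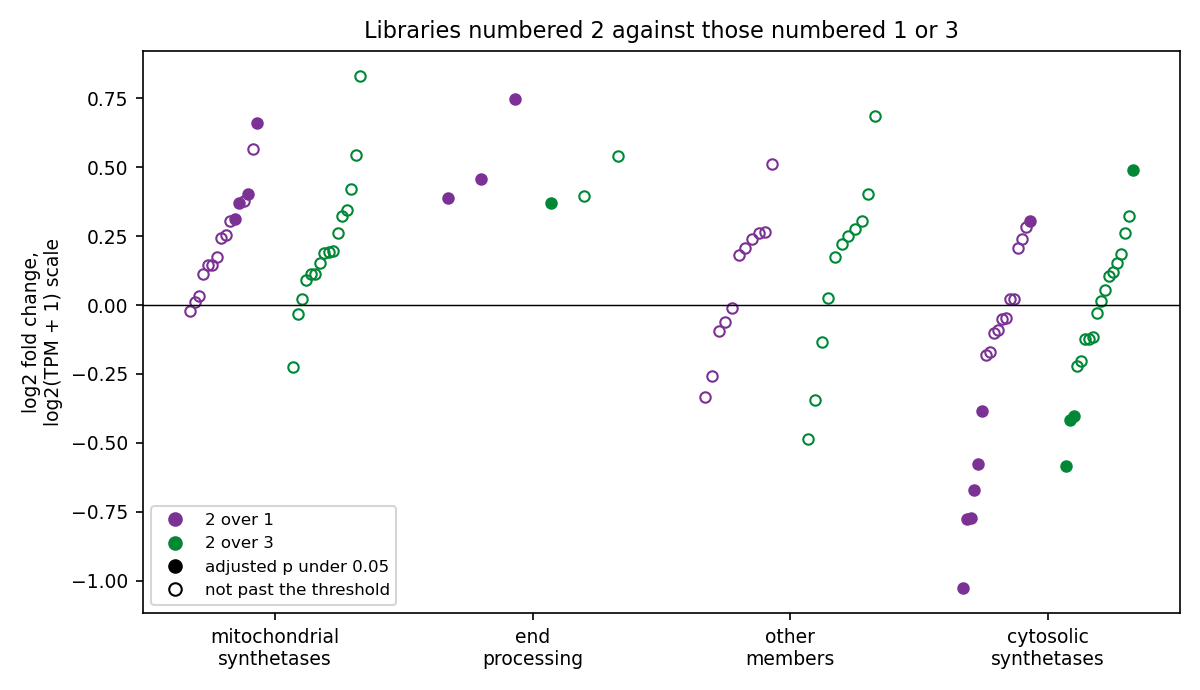
Log2 fold change on the log2(TPM + 1) scale of libraries numbered 2 over those numbered 1 (purple) and over those numbered 3 (green), for each mitochondrial synthetase, end-processing enzyme, other member of the 30 and cytosolic synthetase, with filled points at an adjusted p under 0.05. Points of the mitochondrial genes lie mostly above 0. Of the 18 cytosolic synthetases, 6 lie above and 12 below 0 over number 1, and 9 above and 9 below over number 3. Their filled points lie mostly below 0, down to -1.03 for WARS1.

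TRMT10C and HSD17B10 form RNase P with the nuclease subunit PRORP, and ELAC2 acts on the other end of the tRNA. TRMT10C, at chr3:101561868-101566446, had 24.2, 31.9 and 30.1 TPM in the libraries numbered 2 (uninduced, day 5, day 7), against 19.1, 12.2 and 19.4 TPM in those numbered 1, a log2 fold change of 0.75 (SE 0.197, adjusted p = 0.0409). HSD17B10, at chrX:53431258-53434376, had 144, 144 and 146 TPM in the libraries numbered 2, against 117, 84.2 and 118 TPM in those numbered 1, at 0.46 (SE 0.108, adjusted p = 0.030). ELAC2 was at 0.39 (SE 0.0761, adjusted p = 0.0173). In all 3 the lowest library of number 1 was that of day 5. EARS2 was at 0.66 (adjusted p = 0.0221), CARS2 at 0.40 (adjusted p = 0.039), YARS2, the tyrosyl enzyme, at 0.37 (adjusted p = 0.038) and IARS2 at 0.31 (adjusted p = 0.0258). FARS2 did not go with the number: it was at -0.02 (adjusted p = 0.928) between numbers 2 and 1.

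Upstream windows of 4 of the 7 genes that were higher in number 2 than in number 1, the end-processing enzymes and EARS2, are shown with that of FARS2, the gene with the smallest p at day 7, so that their sequence can be read side by side. The windows are the 250 bases before a transcript start listed in the promoter table from RefSeq, build GRCh38.p14, and 24 of the 30 genes had an entry. AARS2, MTFMT, MTO1, PUS1, TRIT1 and VARS2 had none. The strand is that of the gene: ELAC2 chr17:13018028-13018277 (minus), TRMT10C chr3:101561618-101561867 (plus), HSD17B10 chrX:53434377-53434626 (minus), EARS2 chr16:23557351-23557600 (minus) and FARS2 chr6:5260757-5261006 (plus). For HSD17B10, EARS2 and FARS2 this is the first of 2 entries, so the window need not lie before the outermost start of the gene: that of FARS2 lies inside the span given above, and that of EARS2 runs into its span. Capitals mark matches, on either strand, to the ETS motif CCGGAAGT, the E-box CACGTG and CCAAT.
ELAC2: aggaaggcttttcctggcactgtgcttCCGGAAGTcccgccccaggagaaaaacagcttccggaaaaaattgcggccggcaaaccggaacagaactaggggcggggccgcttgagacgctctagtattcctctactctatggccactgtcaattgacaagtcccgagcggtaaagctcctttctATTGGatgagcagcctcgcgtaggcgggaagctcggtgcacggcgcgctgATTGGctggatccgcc
TRMT10C: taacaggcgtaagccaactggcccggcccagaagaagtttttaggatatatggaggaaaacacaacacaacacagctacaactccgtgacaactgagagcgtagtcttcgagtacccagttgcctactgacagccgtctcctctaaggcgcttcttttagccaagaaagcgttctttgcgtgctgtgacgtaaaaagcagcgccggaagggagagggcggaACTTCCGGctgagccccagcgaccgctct
HSD17B10: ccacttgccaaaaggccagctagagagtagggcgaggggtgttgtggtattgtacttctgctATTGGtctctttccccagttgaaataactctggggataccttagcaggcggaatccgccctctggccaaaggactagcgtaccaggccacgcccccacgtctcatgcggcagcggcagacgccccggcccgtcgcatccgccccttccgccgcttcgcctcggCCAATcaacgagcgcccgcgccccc
EARS2: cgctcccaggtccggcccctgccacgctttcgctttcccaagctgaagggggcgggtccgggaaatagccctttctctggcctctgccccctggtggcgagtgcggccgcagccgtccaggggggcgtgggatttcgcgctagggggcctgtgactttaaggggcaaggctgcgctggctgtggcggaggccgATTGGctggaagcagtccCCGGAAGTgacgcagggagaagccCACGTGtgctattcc
FARS2: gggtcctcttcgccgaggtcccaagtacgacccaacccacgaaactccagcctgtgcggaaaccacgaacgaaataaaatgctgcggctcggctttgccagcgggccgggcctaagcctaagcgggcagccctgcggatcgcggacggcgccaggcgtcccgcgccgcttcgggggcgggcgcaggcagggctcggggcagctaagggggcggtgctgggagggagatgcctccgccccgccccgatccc

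Searched with both strands, the ETS letters were in a listed window of 6 of 24 genes, EARS2, ELAC2, HARS2, PARS2, TRMT10C and TRMU. That is 25% of the 24, beside 4.13% of all 27305 genes in the table and 9.18% of the 9163 genes tested that had an entry. CCAAT was in 14 of 24, or 58.3%, beside 37% of all genes in the table and 42.3% of those 9163 genes. The NRF1 motif was in 2, IARS2 and MARS2, or 8.33% beside 6.2% and 13.1%, and CACGTG was in 2, EARS2 and MARS2, or 8.33% beside 7.73% and 11.6%. AAGATGGC, the letters read by YY1, and TGACGTCA, the cyclic AMP response element, were in none of the 24, beside 1.64% and 2.03% of all genes in the table. Of the windows printed, ELAC2 and TRMT10C hold the ETS letters, EARS2 holds ETS, E-box and CCAAT, HSD17B10 holds CCAAT, and no match was found in the FARS2 window. Of the other 3 genes higher in number 2, which are not printed, none had the ETS letters in a listed window. A match describes these letters in this window and shows no binding. The median GC content was 61.2% over the 24 and 64.8% over the 9163 genes tested that had an entry.

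In the same number test 7 of 18 cytosolic synthetases passed, or 38.9% beside the 12.6% of all genes, led by WARS1, AARS1 and SARS1. With each library left out in turn, between 5 and 7 of the 18 passed, beside 1.68% to 10.9% of all genes. By sign alone, 6 of the 18 were higher and 12 lower in number 2 than in number 1, with a median of -0.10. Against number 3, 9 were higher and 9 lower, with a median of -0.01. Between numbers 2 and 1, 6 of the 18 passed as lower, against 8.55% of all genes. FARSA passed as higher, at 0.30 (adjusted p = 0.0302), 1 of 18 against 9.05%. WARS1 was at -1.03 (adjusted p = 0.0019), CARS1 at -0.78 (adjusted p = 0.0044), SARS1 at -0.77 (adjusted p = 0.00286), AARS1 at -0.67 (adjusted p = 0.00283), MARS1 at -0.58 (adjusted p = 0.00339) and EPRS1 at -0.39 (adjusted p = 0.0123). WARS1 had 108, 118 and 140 TPM in the libraries numbered 2 (uninduced, day 5, day 7), against 216, 283 and 251 TPM in those numbered 1 and 152, 190 and 209 TPM in those numbered 3. All libraries numbered 2 lay below all 6 others. Against number 3, WARS1, AARS1 and SARS1 were lower (adjusted p = 0.0258, 0.0284 and 0.0359) and FARSA was higher (adjusted p = 0.0231). Whether the mitochondrial and cytosolic synthetases differ in this as groups was not tested. Among the 20 other mitochondrial tRNA genes the number test called 4, led by GARS1, TRUB2 and RPUSD4, and among the 11 translation factors 3, MTRFR, MTRF1 and GFM1. These are 20% and 27.3% beside the same 12.6%. With 1 library left out the count of 4 ranged between 0 and 3 and the count of 3 between 0 and 2. Both were 0 without any of the 3 uninduced libraries, day 5 replicate 2, or any of the 3 day 7 libraries. In those settings 1.68% to 6.43% of all genes passed. The translation factors were also at 0 without day 5 replicate 3, beside 7.64% of all genes. GARS1 was lower in number 2 than in number 1, at -0.39 (adjusted p = 0.0204), while the pseudouridine synthases TRUB2 at 0.68 (adjusted p = 0.0226) and RPUSD4 at 0.43 (adjusted p = 0.0249) were higher.

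Summed TPM shows the same values by library, with no test since it is a sum over chosen genes. The 16 mitochondrial synthetases summed to between 406 and 467 TPM in the libraries numbered 2, against 338 to 392 TPM in number 1 and 349 to 399 TPM in number 3. The 18 cytosolic synthetases summed to between 2433 and 2540 TPM in number 2, against 2998 to 3092 TPM in number 1 and 2531 to 2736 TPM in number 3. The ratio of the cytosolic to the mitochondrial sum was 5.21 to 6.26 in number 2, against 7.70 to 9.15 in number 1 and 6.44 to 7.48 in number 3. The ranges of the ratio did not overlap between the 3 numbers. The end-processing enzymes summed to between 236 and 240 TPM in number 2, against 143 to 187 TPM in number 1 and 175 to 181 TPM in number 3.

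**Figure D5:**
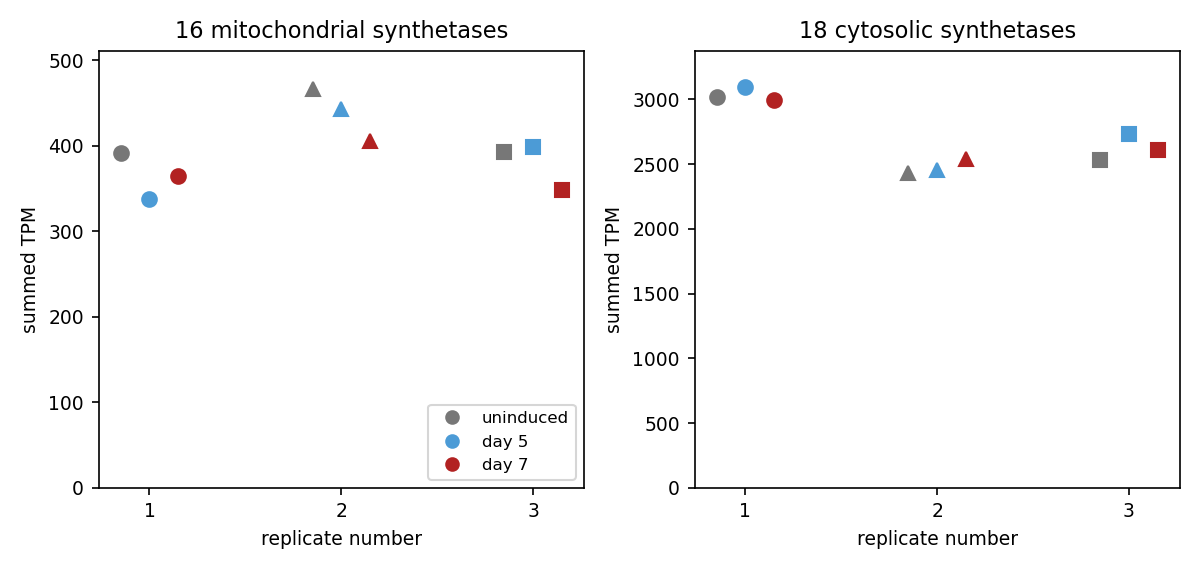
Summed TPM of 16 mitochondrial synthetases on the left and 18 cytosolic synthetases on the right in each library, by replicate number, with colour for the group. The mitochondrial sums of number 2, between 406 and 467 TPM, lie above all others, and the cytosolic sums of number 1, between 2998 and 3092 TPM, lie above all others.

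In 4 of the 30 genes the highest library was over 3 times the lowest: LARS2, VARS2, MTO1 and TRIT1. That is 13.3%, beside 7.76% of the 9700 genes tested in the same range of levels and 19.1% of all genes tested. The median coefficient of variation over the 9 libraries was 16.0% for the 30 and 15.7% in that range of levels. VARS2, the valyl enzyme, had 4.11, 12.2 and 3.33 TPM in uninduced cells, 2.88, 2.72 and 14.9 TPM at day 5, and 6.66, 4.23 and 4.97 TPM at day 7. Its high libraries, uninduced number 2 and day 5 number 3, share neither group nor number, and 91.9% of its sum of squares went with neither. TRIT1, which adds the isopentenyl group to the adenosine beside the anticodon in cytosolic and mitochondrial tRNAs, had 21.4, 16.4 and 9.28 TPM in uninduced cells, 7.06, 9.0 and 23.0 TPM at day 5, and 8.64, 7.79 and 16.0 TPM at day 7. MTO1 had 28.3, 9.25 and 21.2 TPM in uninduced cells, 10.9, 23.5 and 9.39 TPM at day 5, and 23.3, 18.7 and 8.32 TPM at day 7. For TRIT1 and MTO1 the share that went with neither group nor number was 72.9% and 74.1%. The leucyl enzyme LARS2 differs from these: its libraries numbered 2 had 18.2, 16.8 and 12.8 TPM (uninduced, day 5, day 7), all above the others, with a log2 fold change of 0.57 over number 1 (adjusted p = 0.0996), and its lowest value was 5.22 TPM at day 7 in number 3. The 95% interval of the VARS2 difference at day 7 was -1.41 to 1.21, the widest of the 30.

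DNMT3A binding was given as a list of 482 peaks of the wild-type library with the clone as control, without replicates. None of the 30 genes had a peak in its span or within 10 kb, and the same share was 39 of 12825 genes tested with coordinates, or 0.304%. Within 100 kb there were still 0 of 30, beside 0.647%. The nearest peak to any of them lay 477 kb from MTFMT. A peak was found on the chromosome of 19 of the 30, at a median distance of 39.4 Mb, and 11 genes, FARS2 among them, lie on chromosomes without a listed peak. At a background this low, 0 of 30 sets these genes apart from no others.

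By RefSeq coordinates the 30 genes lie on 17 chromosomes, with 6 on chromosome 6 (AARS2, FARS2, RARS2, VARS2, QRSL1 and MTO1) and 5 on chromosome 1. The span of 9 genes overlaps another gene above 1 TPM: besides FARS2, EARS2 and ELAC2 these are CARS2 with ING1, IARS2 with RPS15AP12, WARS2 with WARS2-AS1, QRSL1 with RTN4IP1, GATC with SRSF9 and TRMT5 with SLC38A6. The largest overlapping signal beside a member was that of SRSF9, at a mean of 318.5 TPM, next to GATC. Their values are uncertain to the extent that reads were counted for both genes.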

How the data were processed

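RNA of the 9 libraries was prepared with a TruSeq stranded mRNA kit, per the labels' protocols. The authors deposited 1 table of TPM with 60656 entries for 59608 symbols. Per the submitters' processing notes, the build was hg38 and the tools, listed without their roles, included HISAT2 2.1, StringTie 1.3.4 and Genrich 1.0. The sources used here do not give the annotation release, any filter or the strand setting. The columns of day 0 were matched to the uninduced samples by their number. Genes above 0 TPM numbered 21590 to 22895 per library, and no pair of libraries held identical values. The deposited peak list gives for each peak a score and the −log10 of the p-value, as the authors' peak caller wrote them. A stricter minimum on the −log10 p was an alternative, and the score was not used further.

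Values were transformed to log2(TPM + 1). Genes with at least 1 TPM in at least 3 libraries, 15045 in all, were tested with limma 3.58.1 in R 4.3.3 (group as the only term, all 9 libraries, intensity trend, Benjamini-Hochberg adjusted p under 0.05). The replicate number was tested with the group as a term. The calculation was tested on simulated data with 200 changed genes. It recovered 50% of changes of log2 1 and 82% of changes of log2 2, with 2 false calls. Smaller changes were not simulated. Named genes are those past the threshold, the 4 with the smallest p in each direction in each comparison with uninduced cells (2 between the induced days), and the highest and lowest of each role; LARS2, VARS2, MTO1, TRIT1, SARS2 and the genes higher in number 2 were added after their values were seen. The members and lists were chosen with earlier results of these data known. Peaks were counted in or within 10 kb of RefSeq gene spans. Alternatives were other pseudocounts, filters and scalings, no trend, 2 groups per fit, a replicate block, summed entries of a symbol and leaving out each library.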

Additional observations from a re-analysis of the deposited data

How the results depend on the processing

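In the comparisons between days, 0 of the 30 genes passed the threshold under every alternative run, with the replicate block included. Without a filter, genes past the threshold numbered 1 at day 7 and 3 at day 5 against uninduced, 4 between day 7 and day 5, 0 for both induced groups and 368 for the replicate number, with 0 of the 30 in the last. Also without a filter, 1227 genes and 2 of the 30 differed between numbers 2 and 1, 4 genes and 0 of the 30 between numbers 2 and 3, and 0 genes between numbers 1 and 3. With a minimum of 5 TPM, 10845 genes were tested, 29 of the 30 among them. There, 5 of the 30 passed for the number and 4 between numbers 2 and 3, and 44 genes differed between numbers 1 and 3. In this paragraph, a count of the 30 without one of all genes shows only how the call moved with the setting. Upper-quartile scaling left 1 for the number, and with that scaling and with median centring 0 passed between numbers 2 and 3. Without the trend, 1038 genes and 0 of the 30 passed for the number, 3 of the 30 between numbers 2 and 1, 236 genes and 0 of the 30 between numbers 2 and 3, and 0 genes between numbers 1 and 3. With only the groups compared in the fit, 4 genes passed at day 7 against uninduced and 5 between day 7 and day 5. The cause was not tested. With each library left out in turn, genes past the threshold ranged 0 to 3 at day 7, 1 to 3 at day 5, 1 to 3 between the induced days, 1 to 4 for both induced groups, 251 to 1620 for the number, 717 to 2258 between numbers 2 and 1, 1 to 1923 between numbers 2 and 3, and 0 to 10 between numbers 1 and 3. Of the 30, 0 to 3 passed for the number, 0 to 6 between numbers 2 and 1, and 0 to 6 between numbers 2 and 3, and 6 to 10 lay entirely lower at day 7, where the share of all genes doing so ranged 4.14% to 11.3%. The log2 fold change took both signs for PUS1 (-0.28 to 0.25), TRMT5 (-0.087 to 0.13) and CDK5RAP1 (-0.039 to 0.23) at day 5, and for PARS2 (-0.012 to 0.14), TRMT5 (-0.046 to 0.14) and QRSL1 (-0.12 to 0.29) at day 7. The adjusted p of FARS2 at day 7 ranged 0.554 to 1 over all alternatives.

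Of 9 pairs of same-numbered libraries from different groups, 8 deviated together at a correlation over 0.1 (range 0.08 to 0.44). Pairs with different numbers ranged -0.41 to 0.19. The labels do not give the numbers as a pairing, so the main fit used the group alone. That fit counts spread between numbers as spread between replicates. In 16 of 18 comparisons of a library with the libraries of another group, the best match had its own number. With the replicate block the count of genes past the threshold stayed at 0 at day 7 and 1 in each of the other 3 comparisons between days, FARS2 had an adjusted p of 0.652 at day 7, and genes with an unadjusted p under 0.05 numbered 899 at day 7, against 337 without the block. Depth is unknown for TPM, and with 3 libraries a group the median SE of a log2 fold change was 0.198 over all genes.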
